A study of Mus musculus with 2 samples.

Results

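Solute carriers (gene symbols beginning with Slc) and ATP-binding cassette (ABC) transporters (Abca to Abcg followed by a number) were collected by symbol from the cluster tables of a scRNA-seq study of mouse liver. The rule found 105 genes among the 2788 genes listed in the tables: 85 in the table of hepatocytes, 70 in the table of all cells and 50 in both. They were described by substrate class, assigned from the gene family. The cells were primary hepatocytes, isolated by enzymatic perfusion without sorting from fasted wild type BALB/c mice. The mice received daily intraperitoneal injections for 5 days, of PBS in the control group and of 0.5 µg recombinant IL-33 (rIL-33), a cytokine that activates group 2 innate lymphoid cells, in the treated group. Each condition gave 1 droplet-based library, 2 libraries in all, and the number of mice behind each library was not given in the sources used here. The authors pooled both libraries before they compared clusters, so the deposited tables cannot show a level after PBS next to one after rIL-33.

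A hepatocyte faces blood on its sinusoidal side and a bile canaliculus on the other. Transporters on the sinusoidal membrane take up bile acids, drugs, amino acids and sugars, and ABC pumps on the canalicular membrane spend ATP to export bile salts, phospholipids, sterols and conjugates into bile. Inside the cell, the Slc25 carriers link the mitochondrial matrix with the cytosol, while other carriers serve the endoplasmic reticulum (ER), the Golgi and lysosomes. Most transporters are membrane proteins made from transcripts of modest abundance, so in droplet data many cells yield no transcript of a given transporter even where the protein is present.

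The quantity described throughout is detection, the percentage of cells in which a gene had any value above 0, given for a cluster and for its reference cells. In the hepatocyte table the reference was all other hepatocytes, and in the table of all cells it was all other cells. A gene was listed for a cluster only where the authors' comparison put its mean higher in that cluster and at least 1 of both shares reached 25%, so a transporter that was not listed can still be expressed. With 1 library a condition, pooled cells and clusters built from the same genes, no test was run, no error can be set beside a share, and the transcripts counted per cell are unknown. A share also increases with the transcripts counted per cell, and RNA released from broken cells can add to it. The part of either in the shares below was not tested.

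From the balance of both shares over the listed genes, Hepatocyte1 made up 55.6% of the hepatocytes, Hepatocyte2 14.9%, Hepatocyte3 10.1%, Hepatocyte4 18.1% and Hepatocyte5 1.47%. Of 8 hepatocyte markers, all 8 were listed for at least 1 hepatocyte cluster, and Alb had a value above 0 in 100% of cells inside and outside both Hepatocyte4 and Hepatocyte5. None of 56 markers of other liver cell types was in the hepatocyte table (0 of 56). Only genes that differ between hepatocyte clusters are listed there, so transcripts spread evenly over the clusters would not appear. In the table of all cells, 33 of these 56 markers were listed for the cluster that bears the name of their cell type. The 4 NK cell and 5 cholangiocyte markers among the 56 had no cluster of that name and could not be counted. The cluster named endothelial cells listed 3 of 8 endothelial markers, whereas the cluster named for fibroblasts and hepatic stellate cells (HSC) listed 6 of the 8 beside 5 of its own 6 markers.

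All 124 rows of transporters in the hepatocyte table belonged to Hepatocyte4 or Hepatocyte5. Hepatocyte4 listed 49 of the 85 transporters, or 57.6%, against 54.7% of all 1609 genes in the table. Hepatocyte5 listed 75 of the 85, or 88.2%, against 54.3% of all genes. For the other 3 clusters the count was 0 of 85, where the background was 10.6% of all genes for Hepatocyte1, 3.48% for Hepatocyte2 and 7.64% for Hepatocyte3. By cluster, 39 transporters were listed for both Hepatocyte4 and Hepatocyte5, 36 for Hepatocyte5 alone and 10 for Hepatocyte4 alone. As shares of the 85 these were 45.9%, 42.4% and 11.8%, where the 1318 genes listed for either cluster gave 32.6%, 33.5% and 33.9%.

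In every one of the 124 rows the share was higher in the cluster than in the other hepatocytes, by at least 10 percentage points in 49 of 49 rows of Hepatocyte4 and in 75 of 75 rows of Hepatocyte5. The share of rows past this limit was near the background, since it was 99.2% over all rows of Hepatocyte4 and 99.0% over those of Hepatocyte5. The median difference was 33.9 percentage points for the transporters of Hepatocyte4 (33.1 for all its rows) and 43.9 for those of Hepatocyte5 (43.0 for all its rows). Hepatocyte1, which listed no transporter, had a median difference of -22.9 percentage points over its 170 rows, and its listed genes had shorter transcripts, with a median longest transcript of 918 nucleotides against 3667 for the 85 transporters. Of the genes listed for Hepatocyte4 and Hepatocyte5 the median transcripts were 3431 and 3618 nucleotides. The part of transcript length in the listing was not tested.

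Over all 5 hepatocyte clusters together, the median of the 85 genes was 9.26% of all hepatocytes, with 49 of them under 10% and 14 at 20% or more. The median of all 1318 genes listed for Hepatocyte4 or Hepatocyte5 was 11.7%, so low detection was not particular to transporters. At the top were Slc25a47 with 57.1%, Slc27a2 with 55.5%, Slco1b2 with 46.1% and Slc25a3 with 45.5%. The lowest was Slc3a2 with 3.13%. For the 39 transporters listed for both clusters, the balance of shares also gave the level in the cells of Hepatocyte1, Hepatocyte2 and Hepatocyte3 together, and the median was 5.45% there, 41.4% in Hepatocyte4 and 71.5% in Hepatocyte5.

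**Figure D1:**
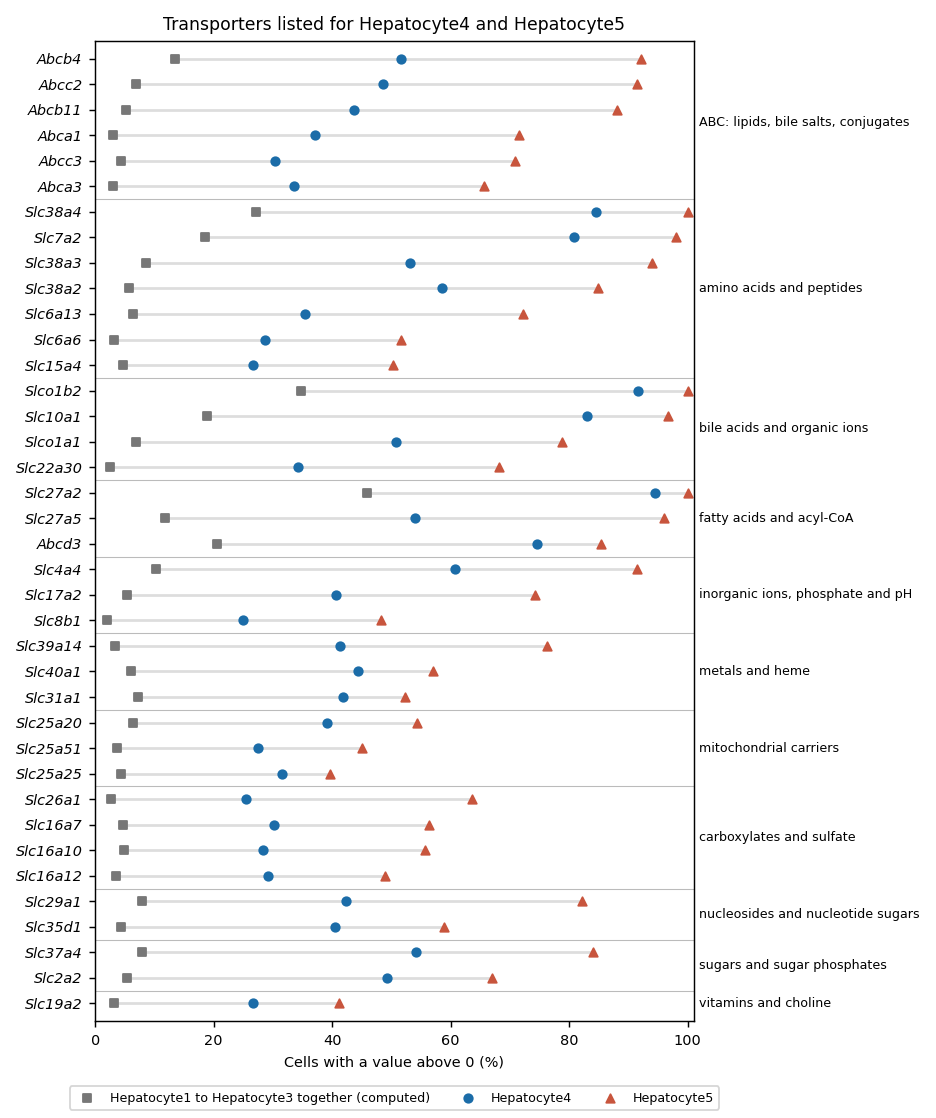
Detection (x axis, % of cells with a value above 0) of 38 of the 39 transporters listed for both Hepatocyte4 (circles) and Hepatocyte5 (triangles), ordered by substrate class; squares give the share computed for Hepatocyte1 to Hepatocyte3 together. In all 38 plotted genes the order is the same, with squares between 1.96% and 45.8% on the left and Hepatocyte5 on the right. Hepatocyte5 was above Hepatocyte4 for 98.8% of all 430 genes listed for both.

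Bile acids and organic ions enter hepatocytes through sinusoidal carriers, and this class held 11 genes, 4 listed for both clusters and 7 for Hepatocyte5 alone. Slco1b2, which takes up bile acids, bilirubin and many drugs, was detected in 91.7% of Hepatocyte4 cells, 100% of Hepatocyte5 cells and 34.8% of the remaining cells. Slc10a1, the sodium-dependent taurocholate carrier, was detected in 83.1% of Hepatocyte4, 96.7% of Hepatocyte5 and 18.9% of the remaining cells. Its difference of 62.8 percentage points between Hepatocyte4 and all other hepatocytes ranked 4 of the 880 genes listed for that cluster. Slco1a1, another organic anion carrier, had 50.8%, 78.8% and 6.81% in the same order, and Slc22a30 had 34.3%, 68.2% and 2.54%. All 4 were ordered alike, with the remaining cells lowest and Hepatocyte5 highest. Genes were listed for a higher mean in these clusters, which favours low shares elsewhere. Hepatocyte5 was above Hepatocyte4 for 98.8% of all 430 genes listed for both, so the order was not particular to these carriers.

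Members of this class listed for Hepatocyte5 alone were set against all other hepatocytes, Hepatocyte4 included. Slc22a18 was detected in 53.6% of Hepatocyte5 cells against 5.6%, and Slco2b1, a carrier of steroid sulfates, with 49.7% against 6.0%. Slco1a4 was at 41.7% against 6.9% and Slc47a1, which exports organic cations into bile in exchange for protons, at 38.4% against 5.2%. Slco2a1, the prostaglandin carrier, stood at 29.1% against 3.9% and Slc22a23 at 25.2% against 3.7%, the latter close to the listing limit of 25%. Slco1b2, Slco1a4 and Slco1a1 lie near each other on chromosome 6 of GRCm38, from 141629518 to 141686646, from 141805440 to 141856199 and from 141907282 to 141946962. Reads that fit several such related genes equally well may be lost or split, so their relative levels are uncertain, as are those of Abca8a and Abca8b on chromosome 11.

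The ABC transporters of lipids, bile salts, drugs and conjugates formed the largest class, with 15 genes, 6 listed for both clusters and 9 for Hepatocyte5 alone. Pumps of the canalicular membrane came first. Abcb11, the bile salt export pump, was detected in 43.7% of Hepatocyte4 cells, 88.1% of Hepatocyte5 cells and 5.21% of the remaining cells. Abcc2, which exports bilirubin glucuronides and other conjugates, had 48.6%, 91.4% and 6.91%. Abcb4, which delivers phosphatidylcholine to bile, had 51.6%, 92.1% and 13.4%. In Hepatocyte5 the differences from all other hepatocytes were 76.8 percentage points for Abcc2 and 75.8 for Abcb11, ranks 5 and 10 of the 874 genes listed.

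Sterol and drug export added further members. Abcg5 and Abcg8 form a heterodimer that exports sterols into bile, and both were listed for Hepatocyte5 alone, with 33.8% against 4.5% of all other hepatocytes for Abcg5 and 40.4% against 6.5% for Abcg8. Abcg2, which exports drugs and urate, was detected in 62.9% of Hepatocyte5 cells against 9.1%. On the sinusoidal membrane, Abcc3, which returns conjugates and bile salts to blood, had 30.3% in Hepatocyte4, 70.9% in Hepatocyte5 and 4.31% in the remaining cells, while Abcc6 had 42.4% against 3.8% in Hepatocyte5 alone.

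Among the lipid carriers of the A branch, Abca1, which loads cholesterol and phospholipid onto apolipoprotein A-I, had 37.1% in Hepatocyte4, 71.5% in Hepatocyte5 and 3.0% in the remaining cells. Abca3, known for phospholipid transport in the lung, had 33.6%, 65.6% and 2.97%. Abca6 was listed for Hepatocyte5 alone and had the largest share of the 36 such genes, 84.8% against 9.2%. Abca8a (33.8% against 4.2%) and Abca8b (29.1% against 3.1%) were lower, as was Abcb6 (50.3% against 4.6%), an organelle transporter that takes part in porphyrin metabolism.

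Promoter sequence was read for the bile acid uptake and export genes and for the sterol exporter, since these carry the canalicular and sinusoidal results above. RefSeq windows on GRCm38.p6 of 300 bases, with 250 before and 50 after each annotated start, were found for 64 of the 85 transporters, 99 windows in all. They were searched on both strands for 3 motifs. GTTAAT is part of the site of the hepatocyte factor HNF1. The core of an HNF4A site reads AAAGTCC. The TATA motif, found upstream of some starts, was searched as TATAAA, and its end can overlap the beginning of the HNF4A core. The HNF1 motif was in 4.04% of the 99 windows against 7.1% of all 32851 windows, the HNF4A core in 8.08% against 4.21% and the TATA motif in 15.2% against 13.6%. By gene these were 4, 8 and 14 of the 64 transporters, and a match describes letters only.

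Shown 5′ to 3′ in lower case, with matches to these motifs in capitals, are the 100 bases before the start of Slco1b2 (chr6:141629418-141629517, + strand), the 100 bases before the start of Abcb11 (chr2:69342617-69342716, - strand) and the 109 bases between the starts of Abcg5 and Abcg8 (chr17:84683012-84683120, + strand). Slco1b2 and Abcb11 both hold the HNF4A core on the opposite strand, and Slco1b2 also holds the HNF1 motif. In their full windows, Slco1a4 held the HNF4A core on the opposite strand, after its start, and Slc10a1 and Slco1a1 matched the TATA motif alone. Slco1b2 matched the TATA motif too, upstream of the bases shown. The RefSeq starts of Abcg5 and Abcg8 lie 110 bases apart and point away from each other, so the stretch precedes both genes. The TATA motif in it reads toward Abcg5. Counted along each gene, the first base of this motif lies at -84 from the start of Abcg5 and at -31 from that of Abcg8.
Slco1b2: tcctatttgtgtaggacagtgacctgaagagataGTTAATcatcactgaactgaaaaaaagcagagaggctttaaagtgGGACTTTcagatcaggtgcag
Abcb11: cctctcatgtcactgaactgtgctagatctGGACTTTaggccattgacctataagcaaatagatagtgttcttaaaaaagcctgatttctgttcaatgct
Abcg5 and Abcg8: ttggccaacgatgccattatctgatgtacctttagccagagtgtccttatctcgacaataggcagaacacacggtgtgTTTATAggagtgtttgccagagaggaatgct

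Fatty acid and acyl-CoA genes were few but widely detected. Slc27a2, a fatty acid transport protein with very long-chain acyl-CoA synthetase activity, was detected in 94.5% of Hepatocyte4, 100% of Hepatocyte5 and 45.8% of the remaining cells. That last value was the highest of the 39 transporters listed for both clusters. Slc27a5, which couples bile acids to coenzyme A, had 54.0%, 96.0% and 11.7%, and Abcd3, a carrier of the peroxisomal membrane, had 74.6%, 85.4% and 20.5%. Slc33a1, which moves acetyl-CoA into the ER, was listed for Hepatocyte5 alone with 46.4% against 5.9%.

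Amino acid and peptide transporters comprised 11 genes, 7 listed for both clusters and 4 for Hepatocyte5 alone. Slc38a4, a sodium-coupled carrier of neutral amino acids such as alanine, was detected in 84.5% of Hepatocyte4, 100% of Hepatocyte5 and 27.1% of the remaining cells. Slc7a2, which takes up arginine and lysine, had 80.9%, 98.0% and 18.5%, and its difference of 60.9 percentage points from all other hepatocytes ranked 7 of 880 in Hepatocyte4. Slc38a3, a glutamine carrier, had 53.2%, 94.0% and 8.58%, with rank 4 of 874 in Hepatocyte5 at a difference of 77.2 percentage points. Slc38a2, another neutral amino acid carrier, had 58.5%, 84.8% and 5.79%. These 4 carry neutral or cationic amino acids. Each had its highest share in Hepatocyte5, an order shared by nearly every gene listed for both clusters.

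Osmolyte and lysosomal carriers stood lower. Slc6a13, a carrier of taurine and GABA, had 35.4% in Hepatocyte4, 72.2% in Hepatocyte5 and 6.39% in the remaining cells, and Slc6a6, the taurine carrier, had 28.6%, 51.7% and 3.12%. The betaine carrier Slc6a12 was listed for Hepatocyte5 alone (52.3% against 5.5%). Slc15a4, a lysosomal carrier of histidine and peptides, had 26.7%, 50.3% and 4.66%, and Slc38a10 was listed for Hepatocyte5 alone with 48.3% against 4.2%. The heavy chains Slc3a1 and Slc3a2, which bring amino acid exchangers to the membrane, were the least detected, with 31.1% against 3.9% and 25.2% against 2.8% in Hepatocyte5.

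Both glucose transporters of the hepatocyte's glucose output route were listed for both clusters. Slc37a4, which moves glucose 6-phosphate into the ER where glucose-6-phosphatase acts, was detected in 54.2% of Hepatocyte4, 84.1% of Hepatocyte5 and 7.85% of the remaining cells. Slc2a2, the facilitative glucose carrier GLUT2, had 49.3%, 66.9% and 5.30%. Slc45a3 was listed for Hepatocyte5 alone with 31.1% against 5.5%.

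Monocarboxylate and sulfate carriers were detected at similar levels to each other. Over the 6 genes of the class, shares over all hepatocytes ran from 6.07% to 10.1%. Slc16a7, a carrier of lactate and pyruvate, had 30.2% in Hepatocyte4, 56.3% in Hepatocyte5 and 4.74% in the remaining cells. Slc16a10, which carries aromatic amino acids, had 28.4%, 55.6% and 4.88%, and Slc16a12, linked to creatine, had 29.2%, 49.0% and 3.59%. The sulfate carrier Slc26a1 had 25.4%, 63.6% and 2.60%, so its gap between Hepatocyte4 and Hepatocyte5, 38.2 percentage points, was wider than in these 3 Slc16 genes (19.8 to 27.2). Slc16a1, the other lactate and pyruvate carrier, was listed for Hepatocyte5 alone with 51.0% against 5.4%.

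Of the nucleoside and nucleotide sugar carriers, Slc29a1, which equilibrates adenosine and other nucleosides, had 42.4% in Hepatocyte4, 82.1% in Hepatocyte5 and 7.97% in the remaining cells. Slc35d1, which brings UDP-glucuronic acid into the ER, had 40.4%, 58.9% and 4.28%. The Slc35 family otherwise split, with Slc35e2 listed for Hepatocyte4 alone (29.2% against 4.5%) and Slc35b1 for Hepatocyte5 alone (35.8% against 5.8%).

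**Figure D2:**
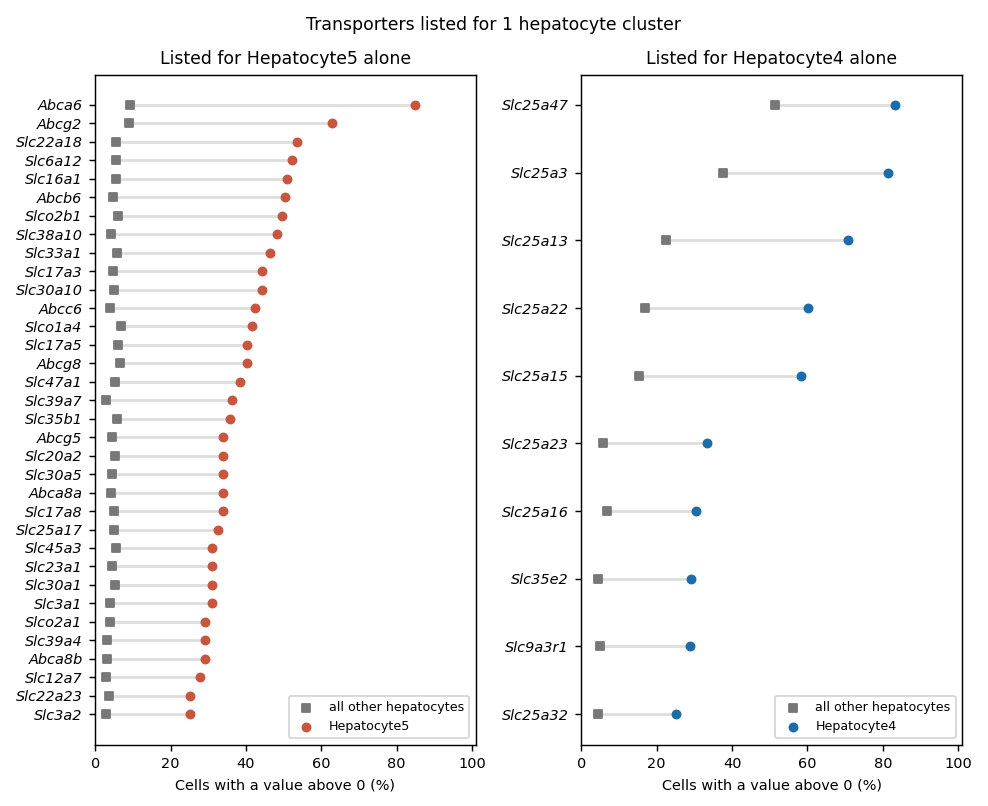
Detection (x axis, % of cells with a value above 0) of 34 of the 36 transporters listed for Hepatocyte5 alone (left) and the 10 listed for Hepatocyte4 alone (right); circles give the cluster and squares all other hepatocytes. On the left the cluster ranges from 25.2% to 84.8% and the reference from 2.8% to 9.2%, and on the right 8 of the 10 genes belong to the Slc25 family.

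The Slc25 carriers differed from the other transporters in where they were listed. Of 12 Slc25 genes, 11 were listed for Hepatocyte4 and 4 for Hepatocyte5, and 8, or 66.7%, were listed for Hepatocyte4 alone. Among the 73 other transporters 2 genes, or 2.74%, were listed for Hepatocyte4 alone, and among all 1318 genes listed for either cluster the figure was 33.9%. The levels in Hepatocyte5 of the 8 genes not listed for it could not be solved, since that small cluster weighs little in their reference. Median transcript lengths, 3133 nucleotides for the Slc25 genes against 3667 for all 85 transporters, are given as a measured difference whose part was not tested.

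Slc25a47, a carrier found mainly in liver, was detected in 83.1% of Hepatocyte4 cells and 51.3% of all other hepatocytes, the highest reference share of the 10 transporters listed for Hepatocyte4 alone. Slc25a3, which imports phosphate for ATP synthesis, had 81.4% against 37.5%, and Slc25a13, the aspartate-glutamate carrier of the malate-aspartate shuttle and urea cycle, 70.7% against 22.5%. Slc25a22, a glutamate carrier, had 60.1% against 16.9%, and Slc25a15, which exchanges ornithine and citrulline for the urea cycle, 58.4% against 15.3%. These 5 therefore had both high shares in Hepatocyte4 and appreciable shares elsewhere.

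The other 3 genes listed for Hepatocyte4 alone were lower: Slc25a23, an ATP-magnesium/phosphate carrier (33.4% against 5.8%), Slc25a16 (30.5% against 6.8%) and Slc25a32, linked to folate and FAD (25% against 4.3%). Of the 3 listed for both clusters, Slc25a20, the carnitine-acylcarnitine carrier that feeds fatty acid oxidation, had 39.2% in Hepatocyte4, 54.3% in Hepatocyte5 and 6.46% in the remaining cells. Slc25a25, another ATP-magnesium/phosphate carrier, had 31.5%, 39.7% and 4.33%, and Slc25a51, the NAD carrier, had 27.5%, 45% and 3.63%. Slc25a17, which sits in peroxisomes rather than mitochondria, was the member listed for Hepatocyte5 alone, with 32.5% against 5.0%.

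The genes for metals included importers and exporters. Slc39a14, which takes up iron, zinc and manganese, had 41.4% in Hepatocyte4, 76.2% in Hepatocyte5 and 3.29% in the remaining cells. Slc40a1, the iron exporter ferroportin, had 44.4%, 57.0% and 6.01%, and the copper importer Slc31a1 had 41.9%, 52.3% and 7.2%. For ferroportin and the copper importer both clusters were close, 12.6 and 10.4 percentage points apart, compared with 34.8 for Slc39a14. The 5 others were listed for Hepatocyte5 alone: the manganese exporter Slc30a10 (44.4% against 4.9%), the zinc carriers Slc39a7 (36.4% against 2.8%), Slc30a5 (33.8% against 4.4%) and Slc39a4 (29.1% against 3.2%), and the zinc exporter Slc30a1 (31.1% against 5.3%).

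Inorganic ion and phosphate carriers were led by Slc4a4, a sodium bicarbonate cotransporter, with 60.8% in Hepatocyte4, 91.4% in Hepatocyte5 and 10.3% in the remaining cells. Slc17a2, of a family of phosphate and organic anion carriers, had 40.6%, 74.2% and 5.45%, and Slc8b1, the mitochondrial sodium-calcium exchanger, had 25%, 48.3% and 1.96%, the lowest level outside both clusters. Slc8b1 stood at the listing limit in Hepatocyte4. Listed for Hepatocyte5 alone were Slc17a3 (44.4% against 4.7%), the sialic acid carrier Slc17a5 (40.4% against 6.0%), Slc17a8 (33.8% against 5.1%), the phosphate carrier Slc20a2 (33.8% against 5.2%) and the potassium-chloride cotransporter Slc12a7 (27.8% against 2.9%).

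Vitamin carriers were the smallest class with a transport role. The thiamine carrier Slc19a2 had 26.6% in Hepatocyte4, 41.1% in Hepatocyte5 and 3.21% in the remaining cells, and the ascorbate carrier Slc23a1 was listed for Hepatocyte5 alone with 31.1% against 4.4%. Slc9a3r1 matched the symbol rule but encodes a scaffold protein that anchors transporters and moves no solute itself. It was listed for Hepatocyte4 alone, at 28.8% against 5.0%.

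**Figure D3:**
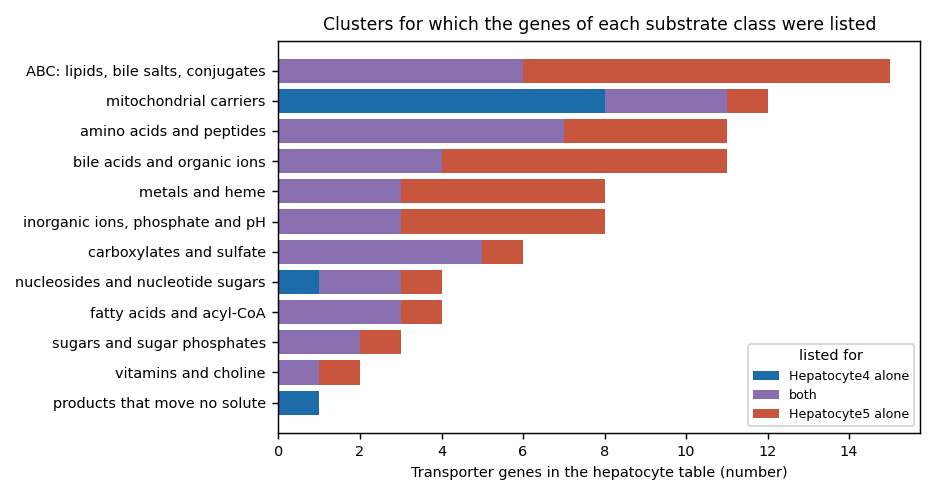
Number of transporter genes of each substrate class in the hepatocyte table (x axis), divided by the clusters for which they were listed: Hepatocyte4 alone, both, or Hepatocyte5 alone. The mitochondrial carriers show 8 of 12 genes under Hepatocyte4 alone, and the ABC class shows 0 of 15.

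In the hepatocyte table, Hepatocyte5 had the higher share for all 39 transporters listed for both clusters. The same held for 98.8% of the 430 genes listed for both, so the direction was that of nearly every gene. The table of all cells, whose shares differ as described further on, listed 35 transporters for both clusters. There Hepatocyte5 was higher for 33 of them, or 94.3%, against 95.4% of all 350 such genes. The exceptions were Slc35d1, with 67.0% in Hepatocyte4 and 60.9% in Hepatocyte5, and Slc3a1, with 59.5% and 33.8%. If transcripts followed Poisson counts, each pair of shares implies a ratio of transcripts per cell, and the median ratio of Hepatocyte5 over Hepatocyte4 was 2.33 for the transporters and 2.13 for all genes listed for both, with genes at 100% left out. It was 3.46 for the ABC class (6 genes, 2.61 to 3.71) and 2.31 for amino acids (6 genes, 2.14 to 3.71). The other classes gave few ratios each. The medians were 2.19 for bile acids and organic ions, 1.57 for the mitochondrial carriers and 1.44 for metals, over 3 genes each, so no order of these classes was drawn. Fatty acid genes gave 2 ratios far apart, 1.40 for Abcd3 and 4.15 for Slc27a5.

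By gene, the largest such ratios were 4.15 for Slc27a5, 3.71 for both Abcb11 and Slc38a3, 3.69 for Abcc2 and 3.50 for Abcb4. Of these, Abcb11, Abcc2 and Abcb4 export into bile, Slc27a5 acts on bile acids and Slc38a3 carries glutamine. Their shares in Hepatocyte5, 1.47% of hepatocytes, were 88.1% to 96.0%, so the few cells without a transcript set each ratio. In the table of all cells, Hepatocyte4 and Hepatocyte5 had 75.9% and 92.7% for Abcb11 and 78.1% and 94.0% for Slc38a3. Slc27a5 had 70.6% and 96.0% there and Abcc2 59.8% and 96.0%, while Abcb4 was not listed for Hepatocyte4. For each of these genes listed for both clusters there, the shares lay closer together than in the hepatocyte table. The ratio was not computed from them, so the order given here is that of the hepatocyte table alone. The smallest ratios were 1.34 for Slc25a25, 1.36 for Slc31a1, 1.40 for Abcd3, 1.44 for Slc40a1 and 1.57 for Slc25a20. Slc2a2 (1.63) and Slc10a1 (1.92) were also below the median of all genes. These ratios carry any difference in transcripts counted per cell between both clusters, whose part was not tested.

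Genes that act with transporters were taken from a list of 35, of which 20 were in the hepatocyte table. Of these 20, Hepatocyte4 listed 13, Hepatocyte5 17, Hepatocyte1 and Hepatocyte3 1 each and Hepatocyte2 0. Over all 1609 genes the shares were 54.7% for Hepatocyte4, 54.3% for Hepatocyte5, 10.6% for Hepatocyte1, 7.64% for Hepatocyte3 and 3.48% for Hepatocyte2. Atp1b1, a beta subunit of the sodium pump that powers sodium-coupled uptake, was detected in 28.9% of Hepatocyte4 cells against 5.2% of all other hepatocytes and in 47.7% of Hepatocyte5 against 8.9%. Rdx, which anchors canalicular transporters to actin, had 59.8% against 16.5% and 84.1% against 23.5%. Of the phospholipid flippases, the subunit Tmem30a was listed for both clusters (46.1% in Hepatocyte4, 69.5% in Hepatocyte5) and Atp8b1 for Hepatocyte5 alone (28.5% against 3.9%).

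Both subunits of the mitochondrial pyruvate carrier, which belongs to neither symbol family, went elsewhere. Mpc1 was listed for Hepatocyte3, with 59.8% against 58.0%, and Mpc2 for Hepatocyte1, with a share of 63.6% that was lower than the 78.7% of all other hepatocytes. Aqp9, a channel for glycerol and water, was listed for both Hepatocyte4 (43.6% against 7.1%) and Hepatocyte5 (68.9% against 12.9%). Cyp8b1, an enzyme of bile acid synthesis, had 75.9% against 23.9% and 94.0% against 32.4%, and Cyp27a1, of the same pathway, was listed for Hepatocyte5 alone with 83.4% against 21.3%. The lipoprotein receptors Lrp1 and Scarb1 had 88.1% and 78.8% in Hepatocyte5, and Tfr2, an iron-sensing receptor, had 60.5% in Hepatocyte4 and 92.1% in Hepatocyte5.

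The table of all cells gave different shares for the same genes in the same clusters. Over 74 rows of transporters present in both tables, the share was higher in the table of all cells in 66, lower in 2 and equal within 0.05 percentage points in 6, with a median difference of 12.7 percentage points and a range from -4.0 to 51.7. Over all 825 such rows it was higher in 704, lower in 17 and equal in 104, with a median of 10.5 percentage points. The gap was therefore not particular to transporters. Cells of a cluster cannot have 2 different shares of the same measurement, so the values above 0 in both tables are not the same quantity. How the values of the table of all cells were made before its shares were taken was not tested, and its shares are called all-cell shares here. The largest gap was that of Slco1a4 in Hepatocyte5, with 41.7% in the hepatocyte table and an all-cell share of 93.4%. Slc8b1 in Hepatocyte4 went from 25% to an all-cell share of 74.6%, while Slc27a2 and Slc38a4 were at 100% of Hepatocyte5 in both.

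**Figure D4:**
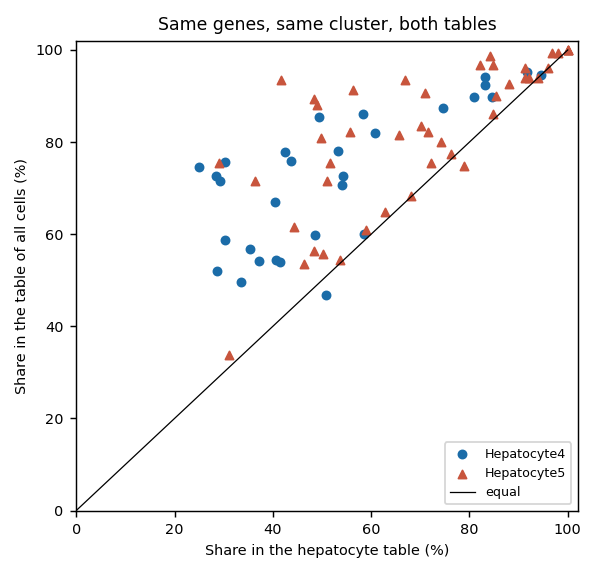
Detection in the hepatocyte table (x axis, % of cells) against detection in the table of all cells (y axis, % of cells) for 74 rows of transporters listed for the same cluster in both; circles are Hepatocyte4, triangles Hepatocyte5, and the line marks equal shares. Points above the line, 66 of the 74, have the higher share in the table of all cells, as did 704 of all 825 such rows.

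In the table of all cells, transporters were again listed for Hepatocyte4 and Hepatocyte5 and for no other hepatocyte cluster. Hepatocyte4 listed 38 of its 70 transporters, or 54.3%, against 25.2% of all 1755 genes, and Hepatocyte5 listed 45, or 64.3%, against 24.7%. The count was 0 for the other 3 clusters, where all genes gave 1.77% for Hepatocyte1, 0.57% for Hepatocyte2 and 2.11% for Hepatocyte3. Of the transporters of Hepatocyte4, 30 were listed in both tables, and of those of Hepatocyte5, 44. Slc25a15 (all-cell share 86.2% against 47.4%) and Slc25a47 (92.3% against 64.1%) were listed for Hepatocyte4 and not for Hepatocyte5 in this table too. The other Slc25 genes that the hepatocyte table listed for Hepatocyte4 alone were not in this table, so their split could not be compared. Outside the Slc25 family, the split between both clusters differed for some transporters. This table listed for Hepatocyte4 a further 8 transporters that the hepatocyte table listed for Hepatocyte5 alone, namely Abca6 (68.1% against 32.0%), Slco1a4 (78.9% against 41.7%), Slc3a1 (59.5% against 26.1%), Slc39a4 (55.8% against 33.2%), Slco2b1 (52.1% against 32.4%), Slc38a10 (49.8% against 34.4%), Slc16a1 (53.7% against 39.0%) and Slco2a1 (34.2% against 24.9%). Of these, Slco2a1 was not listed for Hepatocyte5 here. Being listed for Hepatocyte5 alone was therefore a property of the hepatocyte table for these 8 genes. For Hepatocyte5 the table added Slc10a2, the bile acid carrier known from the ileum, with an all-cell share of 28.5% against 17.5%.

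Outside the hepatocytes, 60 rows named transporters. By gene, 33 of the 70, or 47.1%, were listed for hepatocyte clusters alone, 22, or 31.4%, for other clusters alone and 15, or 21.4%, for both kinds. Over all 1755 genes the same split was 19.9%, 67.3% and 12.8%. In 9 of the 60 rows the all-cell share was lower in the cluster than in all other cells, against 7.18% of all 2787 rows of the 7 other clusters.

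Kupffer cells, the resident macrophages of the liver, listed 16 of the 70 transporters (28.4% of all genes were listed for them). Slc40a1, ferroportin, through which macrophages return iron from red cells to the blood, had an all-cell share of 92.7% against 34.6% of all other cells. Slc11a1, a metal carrier of the phagosome, had 29.1% against 0.6%. The amino acid carriers Slc43a2 (60.6% against 6.2%), Slc7a7 (36.4% against 6.4%) and Slc7a8 (34.1% against 3.1%) were listed as well, and so were the cholesterol exporters Abca1 (66.2% against 31.2%) and Abcg1 (43.0% against 13.5%). Slc9a9, an endosomal sodium-proton exchanger, had 30.8% against 0.6%, Slc16a9 38.1% against 11.5%, Abca9 30.8% against 8.5% and the myo-inositol carrier Slc5a3 35.4% against 17.4%. These 11 were the listed transporters with a higher all-cell share in Kupffer cells. The other 5 genes, Slc38a2, Slc6a6, Slc29a1, Abcc3 and Slc16a10, had all-cell shares below those of all other cells, by 0.2 to 17.7 percentage points. Over all 499 rows of Kupffer cells, 74 had a lower share.

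The red blood cell cluster listed 9 of the 70 (background 18.2%). Slc25a37, mitoferrin 1, which brings iron into mitochondria for heme synthesis, had an all-cell share of 100% against 21.6%, and Abcb10, a mitochondrial transporter known to stabilise mitoferrin, had 66.2% against 29.1%. Alas2, the erythroid enzyme that starts heme synthesis, had 97.5% against 7.4% in the same cluster and was the only 1 of 6 red cell markers listed. Abcg2 (71.3% against 27.6%) and the purine carrier Slc43a3 (45% against 5.6%) were also well apart. Smaller gaps were those of Slc16a6 (25% against 8.2%), Abcb4 (55.0% against 39.1%), Slc3a2 (46.2% against 32.4%), Slc16a1 (47.5% against 41.4%) and Slc16a10 (53.7% against 49.0%).

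Among lymphocytes, T cells listed 8 of the 70 transporters (background 34.1%) and B cells 9 (background 29.1%). Slc38a1, a glutamine carrier, had an all-cell share of 39.2% of T cells against 1.6% and 34.0% of B cells against 1.4%. Slc25a4, an ADP/ATP carrier of mitochondria, had 48.0% against 11.0% and 40.5% against 10.9%, and Slc38a2 had 42.6% against 34.5% and 62.3% against 34.0%. These 3 were the genes listed for both, and the same overlap over all genes was not counted. Slc38a2 was also listed for Hepatocyte4, Hepatocyte5, Kupffer cells and neutrophils. Slc25a4 was also listed for the HSC and fibroblast cluster, with 78.9% against 11.4%.

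T cells also listed Slc44a2, a choline transporter-like protein (37.8% against 2.2%), Slco3a1 (32.4% against 0.3%), Slc43a2 (35.8% against 7.3%), Slc9a9 (29.1% against 1.0%) and Abcg1 (31.1% against 14.1%). In B cells the others were Slc16a6 (38.1% against 7.6%), the heavy chain Slc3a2 (54.3% against 32.0%), Slc7a7 (25.5% against 6.8%) and Slc35b1, which serves the ER (51.8% against 34.0%). Slc39a7 (36.8% against 36.3%) and Abca3 (33.2% against 37.5%) did not have clearly higher shares in B cells.

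The HSC and fibroblast cluster listed 14 of the 70 (background 30.5%), and all 14 had all-cell shares at least 25 percentage points higher than all other cells, as did 96.8% of all 535 rows of this cluster. This cluster made up 0.171% of all cells, so its shares rest on few cells, and it also listed the endothelial markers given above. Abcc9, the regulatory subunit of a potassium channel typical of pericytes and stellate cells, had 94.7% against 0.2%. Slc43a3 had 94.7% against 5.8%, Slco3a1 73.7% against 0.6%, Slc25a4 78.9% against 11.4%, Abcg1 73.7% against 14.2% and Abcg3 63.2% against 5.1%. The remaining 8 (Slc43a2, Slc16a9, Slco2b1, Slco2a1, Slc6a6, Abca1, Slc38a10 and Slc29a1) had between 52.6% and 73.7%.

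Few transporters were listed elsewhere. The cluster named endothelial cells listed 2 (background 5.58%), Slco2a1 with an all-cell share of 30.6% against 26.4% and Slco1a4 with 32.4% against 47.9%. Neutrophils listed 2 as well (background 12.9%), Slc40a1 with 32.5% against 36.2% and Slc38a2 with 28.7% against 34.8%. Only Slco2a1 of these 4 rows had a higher all-cell share in its cluster than in all other cells.

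**Figure D5:**
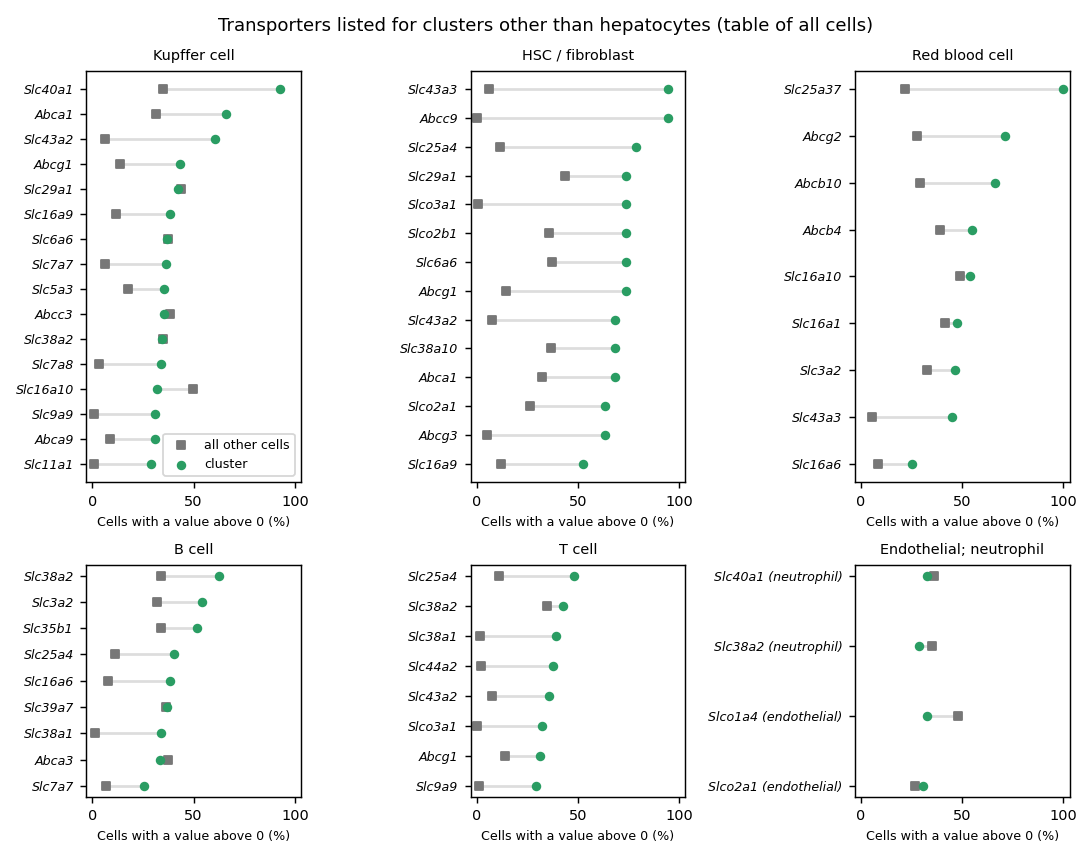
All-cell share (x axis, % of cells) of the transporters listed for each cluster other than hepatocytes in the table of all cells; circles give the cluster and squares all other cells. Wide gaps include those of Abcc9 in the HSC and fibroblast cluster (94.7% against 0.2%) and Slc25a37 in the red blood cell cluster (100% against 21.6%), while both neutrophil genes lie below their reference.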

How the data were processed

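The deposited marker tables give the authors' fraction of cells in which a gene had any value above 0, once for the cluster and once for its reference, and these fractions are printed here as percentages. Per the labels and methods, UMIs were counted with Cell Ranger on mm10. With Seurat, cells with too many or too few genes or a high mitochondrial share were removed, counts were scaled per cell, the natural log was taken, and FindAllMarkers listed the markers of each cluster over both libraries together. The deposited log2 fold changes and the deposited p-values are the authors' own comparisons. They were read only to find the listing limits (lowest log2 fold change 0.25, highest p-value 0.00998 and 0.00989, larger share at least 25%) and are not reported. The tables give no UMI count, so depth is unknown and no interval is given. No doublet caller was run here.

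Members were found by symbol, and classes were assigned by gene family. Named genes were the members, with others from 2 lists, of accessory genes and of cell type markers. A few genes of these lists are counted but not reported here. Members and lists were chosen with earlier results of these data known. Relative cluster sizes were fitted by least squares, for genes listed for at least 2 clusters, so that every row of a gene gave the same total, checked on simulated data. The level outside Hepatocyte4 and Hepatocyte5 was solved from these sizes, and both rows of a gene gave totals within 0.0585 percentage points of each other. In the hepatocyte table, 7 rows with 5 gene names stored as dates were left out of matching. The alternatives were other size fits, other limits on shares, a Poisson ratio, and leaving out Slc9a3r1. Transcript lengths and gene coordinates are from GENCODE M21 (GRCm38, called mm10 by the authors), and promoters from RefSeq (GRCm38.p6). Python 3.11.15, NumPy 2.4.6, pandas 2.3.3 and matplotlib 3.10.9 were used. Change with treatment was not analysed here.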

Additional observations from a re-analysis of the deposited data

How the results depend on the processing

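Cluster sizes moved by at most 0.1 percentage points with other rows or another fit, and no share solved for the cells outside Hepatocyte4 and Hepatocyte5 moved by more than 0.0058 percentage points. Of 60 alternative values, 49 stayed within 1.5 times the main count or within 0.1 percentage points. Some of the 49 could not move, such as a count of 0 under a stricter limit. The same held for a count that already included every listed row, under a looser limit. The other 11 were counts. With a share of at least 50% required, Hepatocyte4 listed 18 transporters in place of 49, Hepatocyte5 40 in place of 75, B cells 3 in place of 9, Kupffer cells 3 in place of 16, red blood cells 5 in place of 9, and T cells, neutrophils and the cluster named endothelial cells 0 in place of 8, 2 and 2. These counts fall because the stricter limit leaves fewer rows. In the table of all cells Hepatocyte5 listed 45 in place of 75. At a difference of at least 25 percentage points, B cells had 4 transporters in place of 7 and red blood cells 4 in place of 7. No paired analysis was possible because the tables pool both libraries, and no library could be left out for the same reason.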
